A study of Sus scrofa with 6 samples.

Results

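Matrix metalloproteases, their tissue inhibitors, the plasminogen activators with their receptor, and lysyl oxidase were described gene by gene in cultured immature Sertoli cells of the pig. The 9 genes MMP2, MMP14, TIMP1, TIMP2, TIMP3, PLAU, PLAUR, PLAT and LOX were chosen by name, with earlier results of these data known. Those whose Ensembl identifier could be matched to a row of the expression table were kept. A row was found for 7 of the 9, out of 20731 genes in all, and MMP2 and TIMP2 were not analysed here. Sertoli cells are the somatic cells of the seminiferous tubule that surround and nourish the germ cells. There were 3 libraries labelled MT, from cells given 10 nM melatonin, a hormone of the pineal gland, for 36 h, and 3 labelled Control, for which no dose, solvent or culture time is given. The labels name no genotype apart from the cell type. They are silent on whether a replicate was its own culture or animal, so the p-values below reflect library-to-library spread that could be purely technical.

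Matrix metalloproteases are zinc enzymes that cut collagens and other matrix proteins, and tissue inhibitors of metalloproteases (TIMPs) bind their active site. The plasminogen activators urokinase (PLAU) and tissue-type activator (PLAT) cut plasminogen to plasmin, a broad protease that also activates some metalloproteases. Lysyl oxidase works in the opposite direction, since it oxidises lysines of collagen and elastin so that the fibres can be cross-linked. In the testis, Sertoli cells secrete plasminogen activators and TIMPs, and the remodelling of junctions as germ cells move through the epithelium is known to involve these proteases.

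Levels are in FPKM, which scales the fragments of each gene to gene length and to library size, so they can be compared between genes. Library depth, recovered from the spacing of small FPKM values, was 19579279 to 21500665 reads. Each of the 7 genes rested on 736 to 8782 reads per library, where counting error alone is at most 3.69% of the value. Of 14 Sertoli markers, 11 had a row and 6 had a mean of at least 1 FPKM. CLU stood at 2909 to 3894 FPKM, AMH at 11.3 to 15.6 and WT1 at 10.0 to 12.8, while INHA, KITLG, DHH and NR5A1 stayed under 0.1 in every library. Some markers of other testis cells were also under 0.1, namely MYH11 of peritubular myoid cells, PDGFRA and DCN of fibroblasts, CYP17A1 of Leydig cells, DDX4 of germ cells, CD163 and CSF1R of macrophages and CDH5 of endothelium. Others of the same lists were expressed, with COL3A1 of the fibroblast list at 11.8 to 18.2 FPKM, STAR and CYP11A1 of the Leydig list at 2.12 to 2.68 and 1.46 to 2.47, and CD68 and CD14 of the macrophage list at 3.18 to 5.30 and 6.21 to 8.30. UCHL1 and STRA8 of the germ list stood at 0.66 to 1.35 and 0.32 to 0.56 FPKM, and PECAM1 of the endothelial list at 0.15 to 0.31. Summed over the measured markers, Control and MT libraries overlapped for fibroblasts (11.9 to 14.6 against 11.8 to 18.2 FPKM), Leydig cells (3.85 to 4.35 against 3.74 to 4.87) and macrophages (9.38 to 12.2 against 11.6 to 13.3). The 6 myoid markers summed to 174.5 to 279.9 FPKM in Control and 178.8 to 210.4 in MT and were led by TAGLN, at 153.7 to 256.9 FPKM. Control replicate 3 was unlike its own group. Across genes its correlation with Control 1 and Control 2 was 0.938 and 0.939, and with the MT libraries 0.952 to 0.975, and mitochondrial mRNAs were 2.73% of its reads against 4.37% to 5.58% in the other 5 libraries. Log2 differences between the groups are therefore given with and without it, and what sets this library apart was not tested. Control 3 was singled out from these same values. The p-values without it can therefore be too small, and the counts of genes passing without it too high.

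Of the 7 genes, the membrane protease MMP14 was higher in all 3 MT libraries than in any Control library and the activator PLAT was lower in all 3, while TIMP1, TIMP3, PLAU, PLAUR and LOX overlapped between the groups. Groups without overlap were thus found in 2 of the 7 genes, against 11.2% of all tested genes. In RNA from bulk cells, a shift in cell makeup and a change in RNA per cell cannot be told apart. With limma over all 6 libraries, 0 of the 7 passed an adjusted p of 0.05, as did 0 of 10950 tested genes (0%). At an unadjusted p under 0.05 there were 2 of the 7, against 4.72% of all tested genes. The 7 genes and the lists of related genes below were chosen with earlier results of these data known. Their counts beside the share of all tested genes are therefore a description and not a test. With limma voom on recovered read numbers, 0 passed as well, and 4.52% of all genes had an unadjusted p under 0.05. Without Control 3, MMP14 rose and PLAT fell in limma, 2 of the 7 against 10.9% of all tested genes, of which 4.28% rose and 6.62% fell. The same 2 genes passed without Control 3 with voom, where 21.7% of all genes did, and after quantile normalisation, where 12.2% did. The median log2 difference of the 7 genes was -0.04 over 6 libraries and 0.01 without Control 3, beside 0.02 and -0.004 over all tested genes. Over 6 libraries 3 of the 7 differences were positive and 4 negative.

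**Figure D1:**
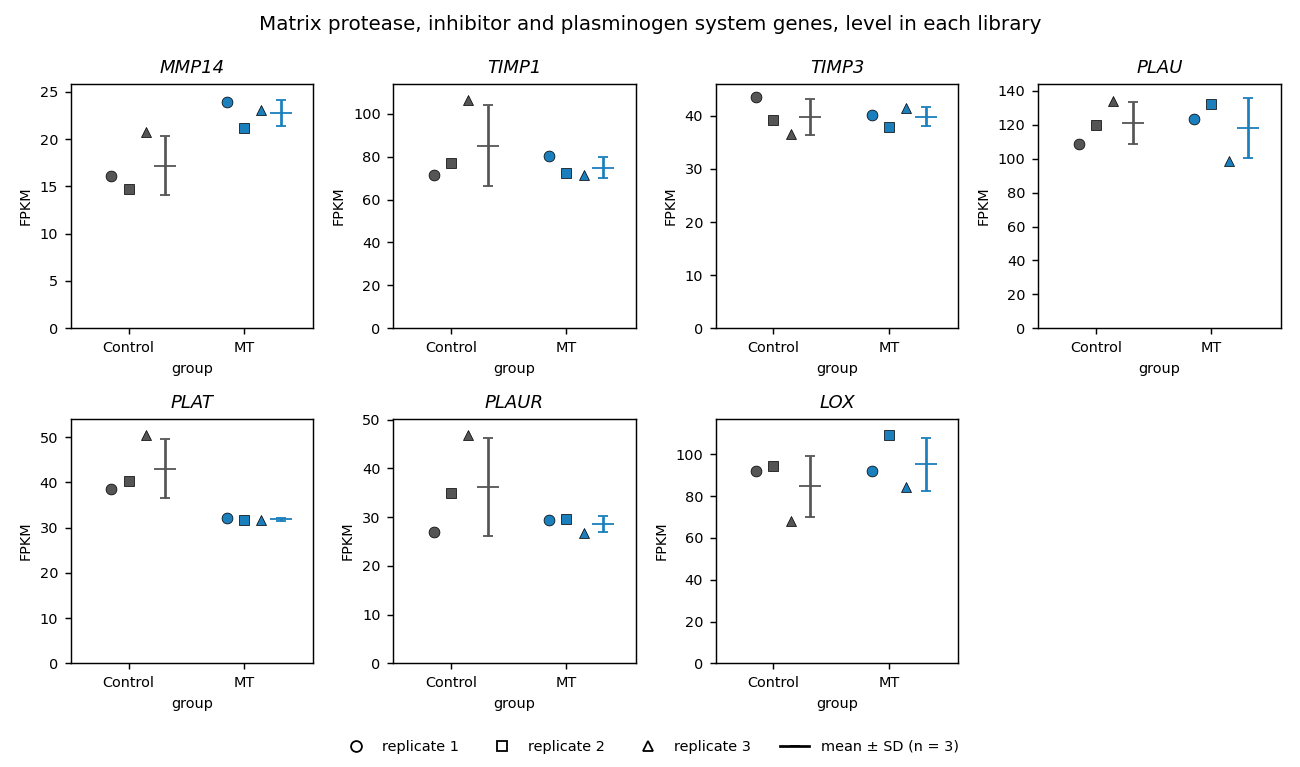
FPKM of the 7 genes (vertical axis from 0) in each Control (grey) and MT (blue) library, with marker shape giving the replicate number and the bar giving mean ± SD (n = 3). MMP14 is higher in MT and PLAT lower in MT without overlap, and Control replicate 3 (grey triangle) is the highest of all libraries for TIMP1, PLAU, PLAT and PLAUR and the lowest for TIMP3 and LOX.

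By level, PLAU was the highest of the 7 genes, with a mean of 119.6 FPKM over the 6 libraries, followed by LOX at 90.1, TIMP1 at 80.0, TIMP3 at 39.8, PLAT at 37.4, PLAUR at 32.4 and MMP14 at 19.97. PLAU exceeded LOX in 6 of 6 libraries although their ranges overlapped. LOX exceeded TIMP1 in 5 of 6, with Control 3 the exception, and TIMP3 exceeded PLAT in 4 of 6. Those neighbours did not separate beyond their spread, whereas TIMP1 against TIMP3 and PLAUR against MMP14 did not overlap in any library. All 7 were well expressed, with mean levels between the 76.7th percentile of tested genes for MMP14 and the 96.9th for PLAU.

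MMP14 (ENSSSCG00000002039, chromosome 7, 76174502 to 76185931) encodes a metalloprotease anchored in the plasma membrane, which cuts collagen at the cell surface and activates the gelatinase MMP2. It stood at 16.1, 14.7 and 20.8 FPKM in Control replicates 1 to 3 and at 24.0, 21.2 and 23.0 in MT replicates 1 to 3. The groups did not overlap, but Control 3 came within 0.459 FPKM of the lowest MT library. The means were 17.2 ± 3.16 and 22.7 ± 1.40 FPKM (SD, n = 3), 1.32 times as much in MT. On the log2(FPKM + 1) scale the difference was 0.39 (SE 0.15, 95% interval 0.05 to 0.74, limma adjusted p 0.962). Without Control 3 it was 0.53 (SE 0.08, adjusted p 0.0251), and with voom 0.56 (adjusted p 0.00622). Non-overlapping groups with MT above were found in 6.24% of all tested genes.

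Both tissue inhibitors overlapped between the groups and did not pass in any fit. TIMP1 (ENSSSCG00000012277, chromosome X, 42103251 to 42106289), a secreted inhibitor of most soluble metalloproteases and a weak one of MMP14, stood at 71.7, 77.2 and 106.7 FPKM in Control and at 80.5, 72.6 and 71.4 in MT. Control 3 was 1.43 times the mean of the other Control libraries, and those 2 lay among the MT values. The difference was -0.16 (SE 0.16, 95% interval -0.56 to 0.23) with 6 libraries and 0.01 (-0.18 to 0.19) without Control 3. TIMP3 (ENSSSCG00000031866, chromosome 5, 12185816 to 12242599), the inhibitor that stays bound to the matrix and also blocks ADAM proteases, was the steadiest of the 7 genes. It stood at 43.5, 39.2 and 36.7 FPKM in Control and at 40.2, 38.0 and 41.4 in MT. The difference was 0.005 (SE 0.11, 95% interval -0.25 to 0.26) and -0.05 (-0.23 to 0.13) without Control 3. A change in TIMP3 beyond 0.26 in either direction thus lay outside this interval, which is not adjusted for the number of genes tested. Smaller changes were not excluded, and the interval gives no size above which a change would have passed. TIMP1 lies inside the span of SYN1, at most 1.06 FPKM, and TIMP3 inside that of SYN3, at most 0.32 FPKM, and no strand setting is known for the counting.

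Urokinase overlapped between the groups. PLAU (ENSSSCG00000010312, chromosome 14, 76629313 to 76635173), the activator that works mainly at the cell surface on its receptor, stood at 109.0, 120.1 and 134.3 FPKM in Control and at 123.6, 132.2 and 98.4 in MT. MT 3 was the lowest library and Control 3 the highest, with the others mixed. The difference was -0.04 (SE 0.15, 95% interval -0.39 to 0.31) and 0.03 (-0.27 to 0.34) without Control 3. The end of the neighbouring gene CAMK2G, at most 12.2 FPKM, overlaps the span of PLAU in the RefSeq annotation. PLAU also lies inside the span of LOC102160869. Likewise PLAUR overlaps LOC106507601, and LOX lies inside the span of LOC100525452. No level was matched to these LOC genes.

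PLAT (ENSSSCG00000007032, chromosome 17, 11195599 to 11223821), the activator that needs fibrin or a cell surface site for full activity, stood at 38.4, 40.2 and 50.6 FPKM in Control and at 32.2, 31.6 and 31.6 in MT. The 3 MT libraries were within 0.605 FPKM of each other and all below the lowest Control library, and Control 3 was the library farthest from MT. The means were 43.1 ± 6.55 and 31.8 ± 0.34 FPKM (SD, n = 3), 0.74 times as much in MT. The difference was -0.41 (SE 0.13, 95% interval -0.72 to -0.11, limma adjusted p 0.822). Without Control 3 it was smaller, -0.30, but with an SE of 0.06 it passed (adjusted p 0.0385, and 0.0215 with voom). Non-overlapping groups with MT below were found in 4.99% of all tested genes.

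PLAUR (ENSSSCG00000032434, chromosome 6, 50489773 to 50505453), the lipid-anchored receptor that holds urokinase at the cell surface, stood at 26.9, 34.9 and 46.8 FPKM in Control and at 29.4, 29.6 and 26.7 in MT. Its Control libraries spread more widely than those of any other of the 7 genes relative to their mean (36.2 ± 10.0 FPKM), and Control 1 lay among the MT values. The difference was -0.30 (SE 0.20, 95% interval -0.77 to 0.17), and -0.10 (-0.37 to 0.17) without Control 3, which was 1.51 times the mean of the other Control libraries.

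LOX (ENSSSCG00000014232, chromosome 2, 125595115 to 125607026) stood at 91.8, 94.6 and 68.1 FPKM in Control and at 91.8, 109.4 and 84.6 in MT. Control 3 was the lowest library, at 0.73 times the mean of Control 1 and Control 2, and those 2 lay among the MT values. The difference was 0.17 (SE 0.17, 95% interval -0.22 to 0.57), and 0.02 (-0.24 to 0.28) without Control 3. Thus MMP14 and PLAT kept their sign in both fits and TIMP1, TIMP3 and PLAU did not, while PLAUR and LOX kept theirs at a smaller size.

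**Figure D2:**
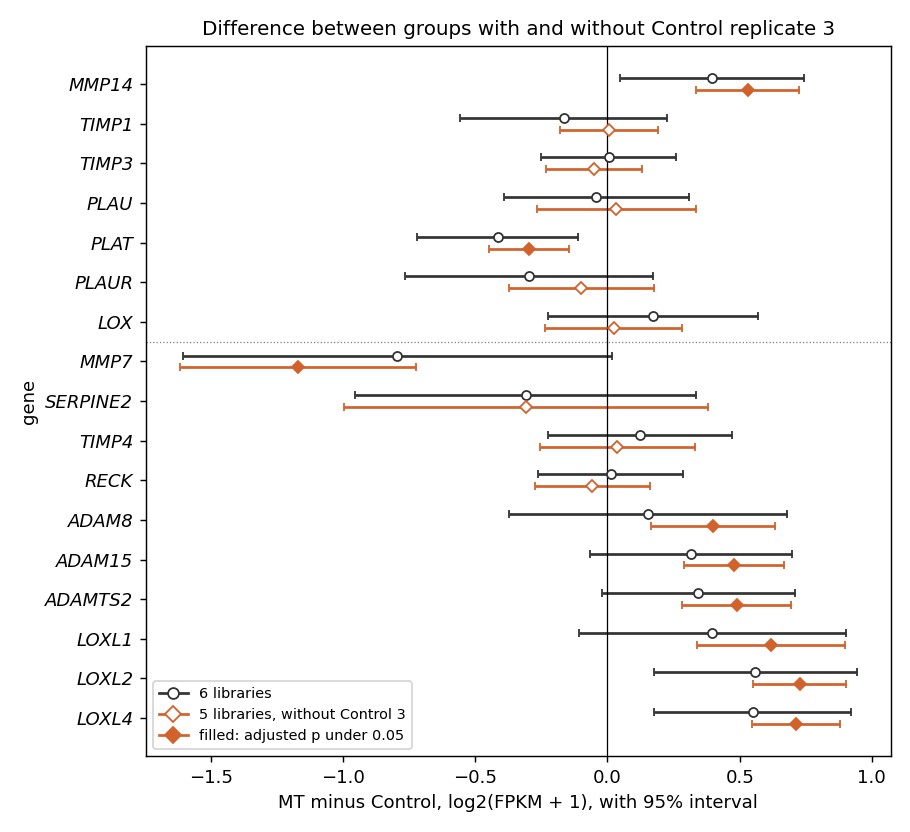
Difference between MT and Control on log2(FPKM + 1), with 95% intervals from limma, for the 7 genes (above the dotted line) and for related genes below it; grey circles use 6 libraries, orange diamonds the 5 without Control 3, and filled symbols passed an adjusted p of 0.05. MMP14 and PLAT are filled only without Control 3, and the intervals of TIMP1, TIMP3, PLAU, PLAUR and LOX include 0 in both fits.

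Levels were also set against each other within a library, since a ratio does not move with library scaling. Of 12 pairs listed, 6 could be formed, of which 4 are given here, and each was compared with a two-sided exact permutation test, which with 3 against 3 libraries cannot go below p = 0.1. PLAU over PLAT was 2.83, 2.99 and 2.66 in Control and 3.84, 4.18 and 3.11 in MT, without overlap, a log2 difference of 0.38 (exact permutation p = 0.1, adjusted over the 6 ratios 0.3), and 0.34 without Control 3. PLAT made up 26.2% ± 1.14 of the summed FPKM of both activators in Control and 21.4% ± 2.58 in MT (SD, n = 3).

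For the other 3 ratios the groups overlapped. MMP14 over TIMP3 was 0.371, 0.375 and 0.566 in Control and 0.596, 0.558 and 0.556 in MT, where Control 3 lay inside the MT range. Its log2 difference was 0.41 (exact permutation p = 0.3, adjusted 0.36), and 0.61 without Control 3. PLAU over PLAUR was 4.06, 3.44 and 2.87 in Control and 4.20, 4.47 and 3.69 in MT. LOX over the collagen chain COL1A2, a substrate of LOX once assembled, was 0.0334, 0.0359 and 0.0238 in Control and 0.0269, 0.0320 and 0.0241 in MT. These 2 ratios differed by 0.26 and -0.15 on the log2 scale, with adjusted exact permutation p of 0.36 and 0.6. Without Control 3 they differed by 0.14 and -0.33, with unadjusted exact permutation p of 0.4 and 0.2. Leaving out this library thus moved the former to a smaller and the latter to a larger difference. COL1A2 itself was above Control in every MT library, as were 6.24% of all tested genes. Its means were 2749 FPKM in Control and 3449 in MT (limma adjusted p 0.799 over 6 libraries). Without Control 3, COL1A2 differed by 0.36 and LOX by 0.02 on the log2(FPKM + 1) scale (limma adjusted p 0.032 and 0.896).

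**Figure D3:**
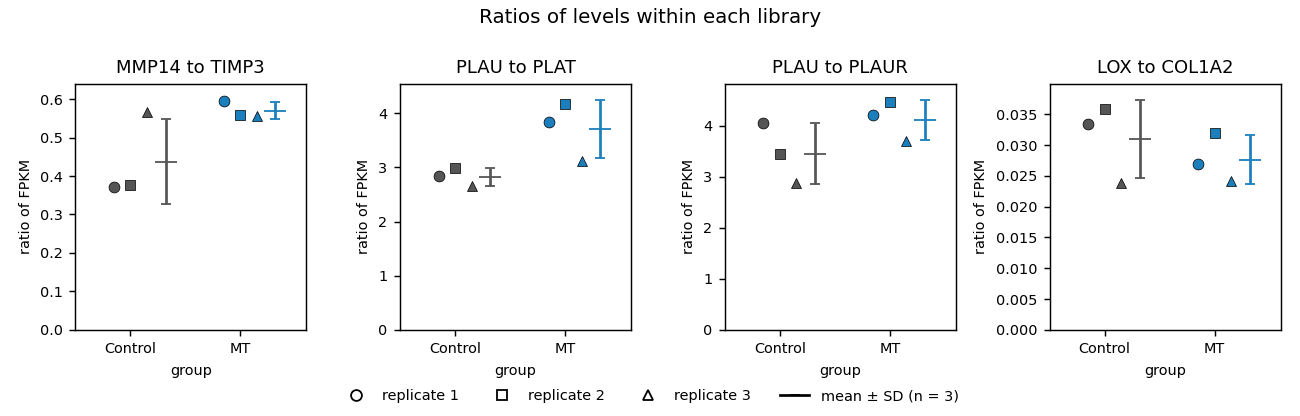
Ratio of FPKM values within each library (vertical axis from 0) for 4 pairs, Control in grey and MT in blue, with marker shape giving the replicate number and bars giving mean ± SD (n = 3). The groups are apart for PLAU to PLAT, and Control replicate 3 lies with the MT libraries for MMP14 to TIMP3.

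Around these genes, 63 other genes of the same systems were listed by function, of which 53 had a row and 28 passed the filter of a mean of at least 1 FPKM. None of the 28 passed with 6 libraries in limma or voom. In each fit 3 had an unadjusted p under 0.05, against 4.72% (limma) and 4.52% (voom) of all tested genes. In limma 24 of 28 had a positive difference, with a median of 0.15. Over all tested genes, 6128 of 10950 differences were positive and the median was 0.02. Without Control 3, 6 rose and 1 fell, 7 of 28 against 10.9% of all genes tested.

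In the plasminogen system, 0 of 6 tested genes passed in limma with 6 libraries, where 0% of all tested genes did. Without Control 3 limma also called 0 of the 6, against 10.9% of all tested genes. The counts of this list with voom and after quantile normalisation are not reported here. SERPINE2, a serpin that blocks urokinase, plasmin and thrombin, was low, at 3.46, 4.86 and 4.10 FPKM in Control and at 3.11, 4.99 and 1.85 in MT. Its difference was -0.31 in both fits (adjusted p 1.0, and 0.461 without Control 3). Plasminogen itself (PLG), added after its values were seen, did not exceed 0.09 FPKM in any library.

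Among the other metalloproteases, 14 of 20 listed had a row and 4 passed the filter. MMP7 (ENSSSCG00000014982), a small secreted enzyme that lacks the hemopexin domain, stood at 53.7, 56.5 and 24.7 FPKM in Control and at 23.3, 31.5 and 18.7 in MT. Control 3 lay inside the MT range. The difference of MMP7 was -0.80 (SE 0.34, adjusted p 1.0) with 6 libraries, and it fell by 1.17 without Control 3 (adjusted p 0.026). MMP19, a secreted metalloprotease added after its values were seen, stood at 42.5, 45.8 and 49.2 FPKM in Control and at 50.5, 49.3 and 52.5 in MT. MT was above without overlap, as in 6.24% of all tested genes. The gap between the groups was only 0.0545 FPKM, where counting error alone is up to 2.81% of the value. MMP19 did not pass in either limma fit (difference 0.15 with adjusted p 1.0, and 0.20 with 0.0906 without Control 3). Together with MMP14, the 15 measured metalloproteases summed to 129.8 ± 5.77 FPKM in Control and 120.0 ± 2.61 in MT (SD, n = 3). MMP14 took 12.3%, 10.9% and 16.8% of that sum in Control and 19.8%, 17.4% and 19.7% in MT, so its share was higher in every MT library. The gelatinase MMP9 rested on 1 to 9 reads and at most 0.08 FPKM.

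Of the inhibitors and partners of metalloproteases, 0 of 3 tested genes passed with or without Control 3. TIMP4 stood at 3.97, 3.19 and 2.83 FPKM in Control and at 3.45, 3.37 and 4.29 in MT, far below TIMP1 and TIMP3. RECK, a membrane-anchored inhibitor of metalloproteases, stood at 2.03, 2.09 and 1.65 in Control and at 1.95, 2.06 and 1.83 in MT. The differences were 0.12 for TIMP4 and 0.01 for RECK, and 0.04 and -0.06 without Control 3. Summed FPKM of TIMP1, TIMP3 and TIMP4 was 119.2, 119.6 and 146.2 in Control and at 124.1, 114.0 and 117.2 in MT, so that Control 3 alone stood out.

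Of the ADAM and ADAMTS proteases, 9 of 19 passed the filter, and 0 passed the test with 6 libraries. Without Control 3 there were 3 of the 9 that rose, against 4.28% of all tested genes. In each of the 3, Control 3 lay inside the MT range or above it. ADAM15, a membrane disintegrin protease, stood at 6.09, 5.70 and 8.65 FPKM in Control and at 8.99, 8.08 and 8.77 in MT. ADAMTS2, which removes the amino-terminal propeptide of fibrillar collagens, stood at 5.64, 6.35 and 8.43 in Control and at 9.07, 9.14 and 8.21 in MT. ADAM8 was at 5.74, 6.82 and 11.14 in Control and at 8.35, 8.11 and 9.32 in MT, where Control 3 exceeded every MT library. Over 6 libraries their differences were 0.32, 0.34 and 0.15, each with an adjusted p of 1.0. Without Control 3 they were 0.48, 0.49 and 0.40, with limma adjusted p of 0.0274, 0.0313 and 0.0479.

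LOX overlapped between the groups, while LOXL2 and LOXL4, the other abundant members of its family beside LOXL1, were higher in MT. LOXL2 (ENSSSCG00000033608), a lysyl oxidase-like enzyme that acts on basement membrane collagen, stood at 366.5, 368.4 and 520.8 FPKM in Control and at 627.0, 637.2 and 564.4 in MT. LOXL4 (ENSSSCG00000010532) stood at 40.1, 38.0 and 55.3 in Control and at 67.7, 61.7 and 64.9 in MT. Both were above Control in all MT libraries, as were 6.24% of all tested genes, and Control 3 was the Control library nearest to MT. LOXL1, which is needed for elastic fibres, overlapped, at 24.9, 25.5 and 40.4 FPKM in Control and at 38.1, 34.4 and 45.9 in MT.

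Over 6 libraries the differences were 0.56 (SE 0.16) for LOXL2, 0.55 (SE 0.16) for LOXL4 and 0.40 (SE 0.21) for LOXL1, with limma adjusted p of 0.775, 0.775 and 1.0. Without Control 3 all 3 rose, by 0.73, 0.71 and 0.62 (limma adjusted p 0.011, 0.00995 and 0.0329), where 4.28% of all tested genes rose. The whole family summed to 523.6, 526.7 and 684.7 FPKM in Control and at 824.9, 842.9 and 759.9 in MT. LOX made up 17.5%, 18.0% and 9.94% of that sum in Control and 11.13%, 12.99% and 11.13% in MT, so its share was lowest in Control 3. Whether the difference of LOX itself departs from that of LOXL2 was not tested.

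**Figure D4:**
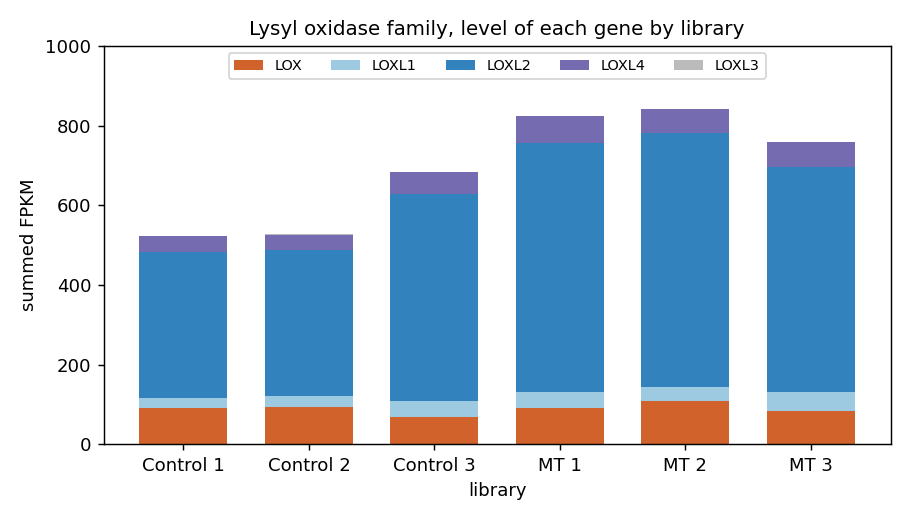
Summed FPKM of the lysyl oxidase family in each library (bars from 0), split by gene; LOXL3, at most 0.23 FPKM, is too low to be seen. Over all libraries the LOX segment ranges from 68.1 to 109.4 FPKM and the LOXL2 segment from 366.5 to 637.2. Control 3 lies between the other Control libraries and the MT libraries for LOXL2 and is the lowest library for LOX.

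For each of the 7 genes, the tested gene with a symbol whose log2(FPKM + 1) values were most like it over the 6 libraries was taken by Pearson's r, as a description without a test. The libraries, and Control 3 above all, are shared by every such pair, and with 6 points among 10950 genes a high r is easily reached. PLAU was most like ANXA2 (r = 0.954), the gene of annexin A2, a plasminogen-binding protein of the cell surface, at 306.7, 329.4 and 345.8 FPKM in Control and at 334.6, 352.5 and 306.4 in MT. MMP14 was most like NIM1K (0.997), PLAT most like CCNF (0.997), the gene of cyclin F, and PLAUR most like PHF19 (0.997). TIMP1 was most like EIF6 (0.998), TIMP3 most like PWWP3A (0.983) and LOX most like RALGPS2 (0.995).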

How the data were processed

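RNA of 3 Control and 3 MT libraries was sequenced. Values are FPKM as deposited by the authors, 1 column per library. Per the submitters' processing notes, HISAT2, featureCounts (Subread) and bcl2fastq were used with the build Sscrofa11.1. Tool versions, annotation, strand setting and filters were not given in the sources used here. Each value is tied to each library's sum, so abundant transcripts move all other values.

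Genes were named by Ensembl identifier, which gave 13173 of 20731 a symbol, and coordinates are RefSeq's on Sscrofa11.1, matched by symbol. The 10950 genes whose mean reached 1 FPKM were compared by limma 3.58.1 (R 4.3.3) on the log2(FPKM + 1) scale (variance trend, group as the only term, two-sided, Benjamini-Hochberg adjustment over all tested genes, threshold 0.05). This scale understates changes of low genes. Read numbers were recovered from the steps of low values, with 100.0% of tested genes within 0.01 of whole reads, and were used with voom as an alternative. The fit was tested on simulated data. Ratios used exact permutation tests. Replicate numbers were not treated as pairs. The counting errors given cover the sampling of reads only.

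The 9 genes and all lists were chosen with earlier results of these data known. Named related genes are those passing with or without Control 3, the 3 smallest p in each direction, and SERPINE2, TIMP4, MMP9 and RECK. A gene named by the rule, with 2 ratios that use it, is not reported here. MMP19, PLG and gene sums were added after seeing values.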

Additional observations from a re-analysis of the deposited data

How the results depend on the processing

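Leaving out Control 3 was the choice that changed calls. Over all tested genes the calls went from 0 with 6 libraries to 1194 without it in limma (469 up, 725 down), 2375 with voom (913 up, 1462 down) and 1333 with quantile normalisation (663 up, 670 down), and leaving out each library in turn gave 0 to 1194. For the 7 genes the count went from 0 to 2 in each of those 3 fits, always MMP14 and PLAT, and for the 28 related genes to 7, 10 and 8. Other pseudocounts, filters, scalings and variance models, voom and leaving out any other library called 0 genes. The replicate block also called 0 genes, with 499 at an unadjusted p under 0.05. Deviations of same-numbered libraries from their group means correlated at -0.441, 0.632 and 0.338. Control 1 and Control 3 correlated best with another number (MT 2 and MT 1), and Control 2 with its own (MT 2). With 3 libraries per group and Control 3 far from its group, these values cannot settle whether same-numbered libraries were pairs. MMP14 (0.30 to 0.56), PLAT (-0.49 to -0.30) and PLAUR (-0.49 to -0.10) kept their direction in all 16 alternatives.

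Some differences changed sign, and each value of changed sign had a limma adjusted p of at least 0.546. With each library left out in turn, TIMP1 ranged from -0.28 (without Control 1) to 0.0066 (without Control 3), TIMP3 from -0.051 (without Control 3) to 0.0695 (without Control 1), and PLAU from -0.13 (without MT 2) to 0.0822 (without MT 3). RECK ranged from -0.0574 (without Control 3) to 0.0551 (without Control 2). ADAM8 ranged from -0.0245 (without Control 1) to 0.40 (without Control 3), where it passed (limma adjusted p 0.0479). Signs also turned for TIMP3 without Control 2, MT 1 or MT 3, for PLAU without Control 3 and for RECK without MT 2. With voom and without Control 3, TIMP1 was 0.007, PLAU 0.034, TIMP3 -0.052 and RECK -0.087. With quantile normalisation and without Control 3, TIMP3 was -0.064, LOX -0.020 and RECK -0.029. TIMP3 was -0.014 with median-of-ratios scaling, and RECK -0.028 with quantile normalisation of all 6. The cause was not tested.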
